A study of Homo sapiens with 9 samples.

Results

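HMOX1 encodes heme oxygenase 1, the inducible enzyme that opens heme into biliverdin, iron and carbon monoxide. It was examined beside 9 other genes of the NRF2 and BACH1 system: the target genes NQO1, GCLM, GCLC, TXNRD1 and SRXN1, the regulators BACH1, NFE2L2 and KEAP1, and BLVRB, which encodes a biliverdin reductase. The genes were chosen by symbol, and their values were read from probe sets whose platform annotation names that gene alone. All 10 of the 10 genes were found, among 19775 genes measured, through 21 probe sets. HMOX1, SRXN1, KEAP1 and BLVRB had 1 such probe set each, NQO1, GCLM, GCLC, BACH1 and NFE2L2 had 3 each and TXNRD1 had 2. Where a gene had several, its brightest probe set on average stood for it, and all 10 of these lay above the floor signal of 12.5 on all 9 arrays.

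U937 is an established human line of lymphoma origin with monocyte features. Cultures were heated for 15 min at 44 °C or at 42 °C, then returned to 37 °C and sampled after 0, 1, 3 or 6 h, and untreated cells at 37 °C were the control. That gave 4 arrays at 44 °C, 4 at 42 °C and 1 control array, each an Affymetrix array read once per condition. With 1 array per condition there is no replicate error and no test was run. A gene is said to have risen or fallen where its signal differed by 2-fold or more, and all values describe these arrays. The single control stands for every recovery time, so heat and hours in culture cannot be told apart at 1, 3 or 6 h.

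The deposited arrays differed in level, with 2% trimmed means of 172 to 211 at 44 °C, of 101 to 160 at 42 °C and of 165 in the control, and each was scaled to a trimmed mean of 100. Array level therefore moved with temperature, and its part in the differences between temperatures was not tested. Among markers of U937's lineage, 8 of 11 were above the floor on all arrays, with LYZ at 1800 to 3246, while MPO and FCGR1A were at the floor throughout. CEBPA was 1880, 1374, 948 and 821 at 0, 1, 3 and 6 h after 44 °C and 1072, 933, 574 and 1066 after 42 °C, against 2122 in the control, and so fell on 4 of 8 heated arrays. PRTN3 rose 2.13-fold at 0 h after 42 °C, and ITGAX was at the floor at 0 h after 44 °C and at 0 and 6 h after 42 °C, against 26.5 in the control. Of T cell markers 0 of 4, of erythroid markers 0 of 3 and of epithelial and fibroblast markers 0 of 6 were above the floor on all arrays, and of B cell markers 1 of 3 (CD79A, 21.9 to 65.4, with a 2.07-fold rise at 1 h after 44 °C). Another CD79A probe set had a log2 fold of -0.23 at that point. Markers CD3E, CD8A, ALAS2, EPCAM, COL1A2 and COL3A1 were at the floor on all 9 arrays. HBB was above it on 7 arrays, with 27.5 at 0 h after 44 °C and 27.5 and 28.9 at 0 and 1 h after 42 °C, against the floor in the control, and CD2 on 5 arrays, with at most 26.3. The summed signal of the epithelial and fibroblast list ran from 77.6 to 339 on the heated arrays, against 75.3 on the control array. COL1A1 reached 268, against the floor in the control, and KRT18 was above the floor on 5 arrays, with at most 20.5. Another COL1A1 probe set had log2 folds of 0.58 at 6 h after 44 °C and -0.21 at 6 h after 42 °C. Of markers of heme-clearing macrophages, CD163 and CD5L were at the floor on all arrays. The remaining one, MRC1, was at the floor in the control and at 26.2 and 48.4 at 3 and 6 h after 44 °C and 51.6 and 38.7 at 3 and 6 h after 42 °C, the times when HMOX1 was high. The summed signal of that list of 3 was 37.6 to 76.7 on heated arrays, against 37.6 in the control. The part of these markers in the values below was not tested.

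NRF2, the product of NFE2L2, is a transcription factor that KEAP1 holds in the cytoplasm and passes to a CUL3 ubiquitin ligase for destruction. Oxidants and electrophiles modify cysteines of KEAP1, NRF2 then reaches the nucleus and, paired with small Maf proteins, binds antioxidant response elements of genes for glutathione synthesis, thioredoxin reduction and quinone detoxification. BACH1 occupies the same elements as a repressor and leaves them when it binds heme, which places HMOX1 under control of its own substrate. HMOX1 is known for distal enhancers with such elements.

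The elements close to gene starts are shown because they tell which of these genes carry the NRF2 and BACH1 sequence there. RefSeq promoter sequences (GRCh38.p14) matched 9 of the 10 genes, with 14 starts in all, and the gene not matched was HMOX1. In the 250 bases before each start, the response element core TGACNNNGC was searched on both strands, and so was the longer element of NRF2 or BACH1 with a small Maf, which is TGCT, any 1 base and AGTCA. The longer element, read on its strand, contains a core. The core occurred in 10.9% of all 35116 promoters and at 13.2% of the 27305 genes they belong to. Among the 9 genes it occurred at GCLM, TXNRD1 and KEAP1. The longer element occurred in 0.288% of promoters and at 0.366% of genes. Among the 9 genes it occurred at GCLM and KEAP1, with the same 10 letters in both. The heat shock element of 3 units was searched as GAA, TTC and GAA with any 2 bases between units. It was in 0 of the 9 genes' windows, in 0.441% of promoters and at 0.557% of genes. In the sequences, capitals mark the longer element for GCLM and KEAP1 and the core for TXNRD1. KEAP1 also held a second core further from its start, and its line for that match is given too.
GCLM, chr1:93909431-93909491, minus strand: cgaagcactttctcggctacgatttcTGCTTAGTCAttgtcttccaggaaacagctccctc
KEAP1, chr19:10502772-10502829, minus strand: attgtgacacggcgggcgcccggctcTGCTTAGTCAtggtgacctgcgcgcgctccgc
KEAP1, second core, chr19:10502792-10502851, minus strand: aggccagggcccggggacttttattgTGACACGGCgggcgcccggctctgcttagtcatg
TXNRD1, chr12:104215654-104215713, plus strand: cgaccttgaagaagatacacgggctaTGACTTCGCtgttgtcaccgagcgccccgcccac
TXNRD1, chr12:104286904-104286963, plus strand: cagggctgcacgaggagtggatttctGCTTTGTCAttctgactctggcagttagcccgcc
The matches ended 26 bases before the start of GCLM, 23 and 46 before 1 of the 2 starts of KEAP1, and 91 and 94 before the 2 starts of TXNRD1. Such matches describe letters in these windows and not binding.

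HMOX1 rose after both temperatures and was highest at the last time sampled. After 44 °C its scaled signal was 94.7, 119, 526 and 1449 at 0, 1, 3 and 6 h, and after 42 °C it was 210.0, 452, 745 and 1158, against 114 in the control. The arrays at 44 °C of 0 and 1 h lay near the control, while the other 6 heated arrays lay above it. Against the control, the 44 °C arrays stood at 0.827-fold, 1.04-fold, 4.60-fold and 12.7-fold, and the 42 °C arrays at 1.83-fold, 3.95-fold, 6.51-fold and 10.1-fold. HMOX1 thus passed 2-fold on 5 of 8 heated arrays.

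The order of the 9 HMOX1 levels ran from the 6 h array of 44 °C, through the 6 h and 3 h arrays of 42 °C, the 3 h array of 44 °C, and the 1 h and 0 h arrays of 42 °C, to the 1 h array of 44 °C, the control and the 0 h array of 44 °C. Neighbours in this order differed by 1.04-fold to 2.15-fold, and the 1 pair 2-fold or more apart was the 1 h against the 0 h array of 42 °C. Without replicates the order of closer neighbours is not established. Among all genes, HMOX1 had the 11th largest rise at 6 h after 44 °C and the 12th largest at 6 h after 42 °C, counting folds at the floor. At 3 h it was 29th after 44 °C and 27th after 42 °C.

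**Figure D1:**
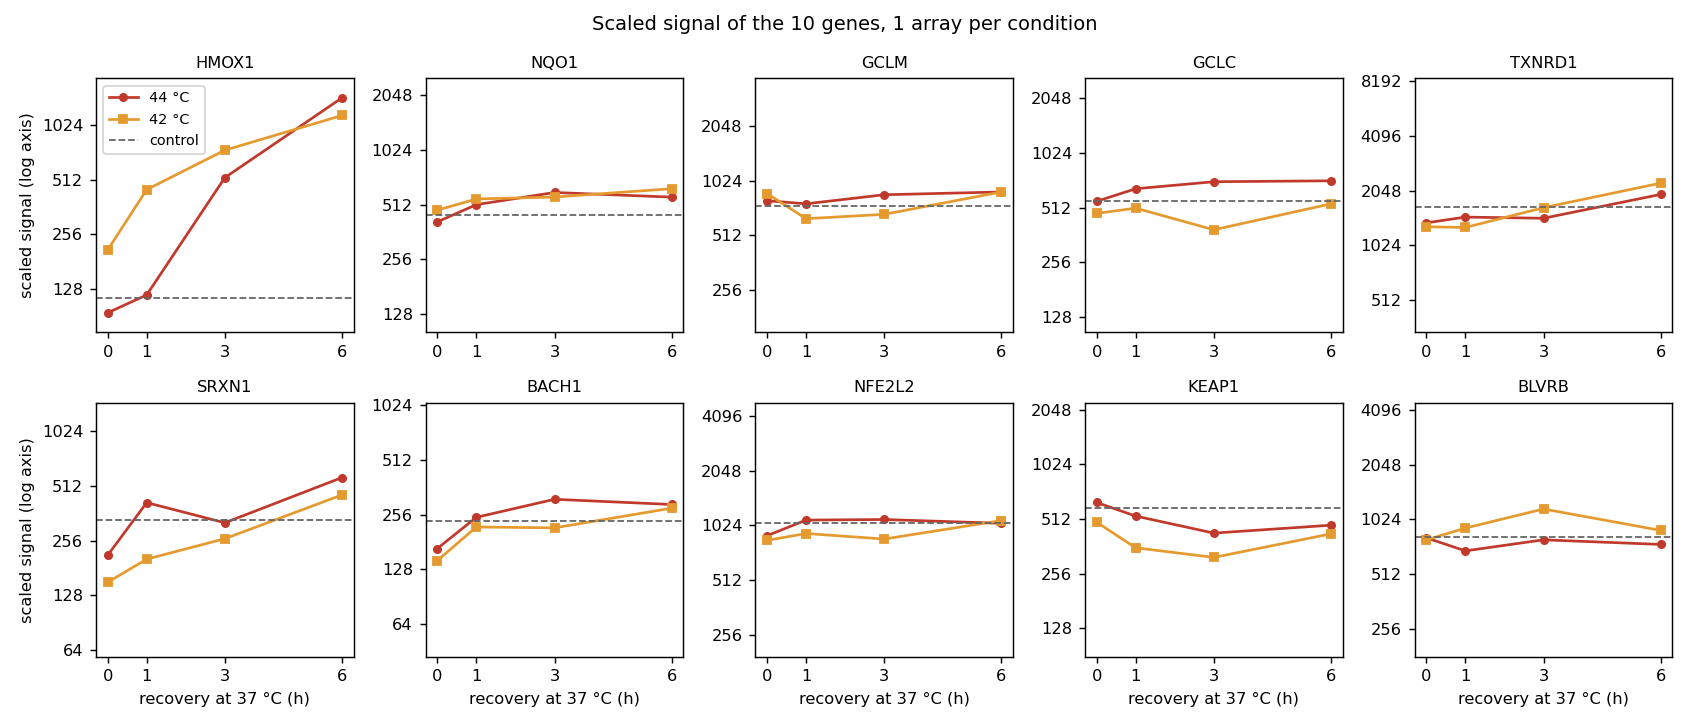
Scaled signal (log axis, the same span in each panel) of the 10 genes against recovery time in h, with circles for 44 °C, squares for 42 °C and a dashed line for the control, 1 array per point. HMOX1 climbs to 1449 and 1158 at 6 h while the other 9 genes stay within 2-fold of their control line, apart from SRXN1 at 0 h after 42 °C (151 against 331).

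The steps between times differed in shape. After 44 °C HMOX1 stood 1.25-fold higher at 1 h than at 0 h, 4.43-fold higher at 3 h than at 1 h, and 2.75-fold higher at 6 h than at 3 h. After 42 °C the steps were 2.15-fold, 1.65-fold and 1.55-fold. The 6 h array stood 15.3-fold above the 0 h array after 44 °C and 5.52-fold above it after 42 °C.

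Set directly against each other, the 44 °C arrays had less HMOX1 than the 42 °C arrays early and about as much late. At 0 h the signal was 94.7 at 44 °C and 210.0 at 42 °C, 2.22-fold lower at 44 °C. At 1 h it was 119 at 44 °C and 452 at 42 °C, 3.80-fold lower. The log2 difference was -0.50 at 3 h and 0.32 at 6 h, both within 2-fold. Lower early signals at 44 °C were not particular to HMOX1. TXNIP and most of the heat shock chaperones listed below had them as well. Of the 10 genes 1 fell at 0 h, HMOX1, with 0.753% of all genes, and 0 rose, with 1.59%. At 1 h 1 fell, HMOX1, with 1.27% of all genes, and 1 rose, SRXN1, with 1.01%. At 3 h 0 of 10 rose, with 1.02%, and 0 fell, with 0.976%, and at 6 h 0 rose, with 0.85%, and 0 fell, with 1.37%.

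The other 9 genes stayed within 2-fold of the control with 1 exception. Of the 72 values of the 9 other genes against the control, 0 were 2-fold or more higher and 1 was 2-fold or more lower, SRXN1 at 0 h after 42 °C. Their log2 folds ran from -1.13 to 0.78, where HMOX1 reached 3.66. At 0 h after 42 °C 1 of the 10 genes fell, against 2.41% of all genes, and 0 rose, against 0.93%. At 1, 3 and 6 h after 42 °C the 1 gene of 10 to rise was HMOX1, where 1.9%, 1.98% and 2.59% of all genes rose, and 0 of 10 fell, where 1.53%, 3.08% and 2.38% of all genes fell. At 3 and 6 h after 44 °C HMOX1 was again the 1 gene to rise, with 1.16% and 2.51% of all genes, and 0 fell, with 1.41% and 2.64%. At 0 and 1 h after 44 °C 0 of 10 rose, with 0.855% and 0.925% of all genes, and 0 fell, with 1.03% and 0.455%.

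The median log2 fold of the 9 genes without HMOX1 was -0.13, 0.053, 0.063 and 0.26 at 0, 1, 3 and 6 h after 44 °C, and -0.26, -0.19, -0.15 and 0.24 after 42 °C. Over the 9913 genes above the floor on all arrays, the medians ran from -0.056 to 0.022. At 6 h the 9 genes thus had a positive median after both temperatures, well inside 2-fold.

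**Figure D2:**
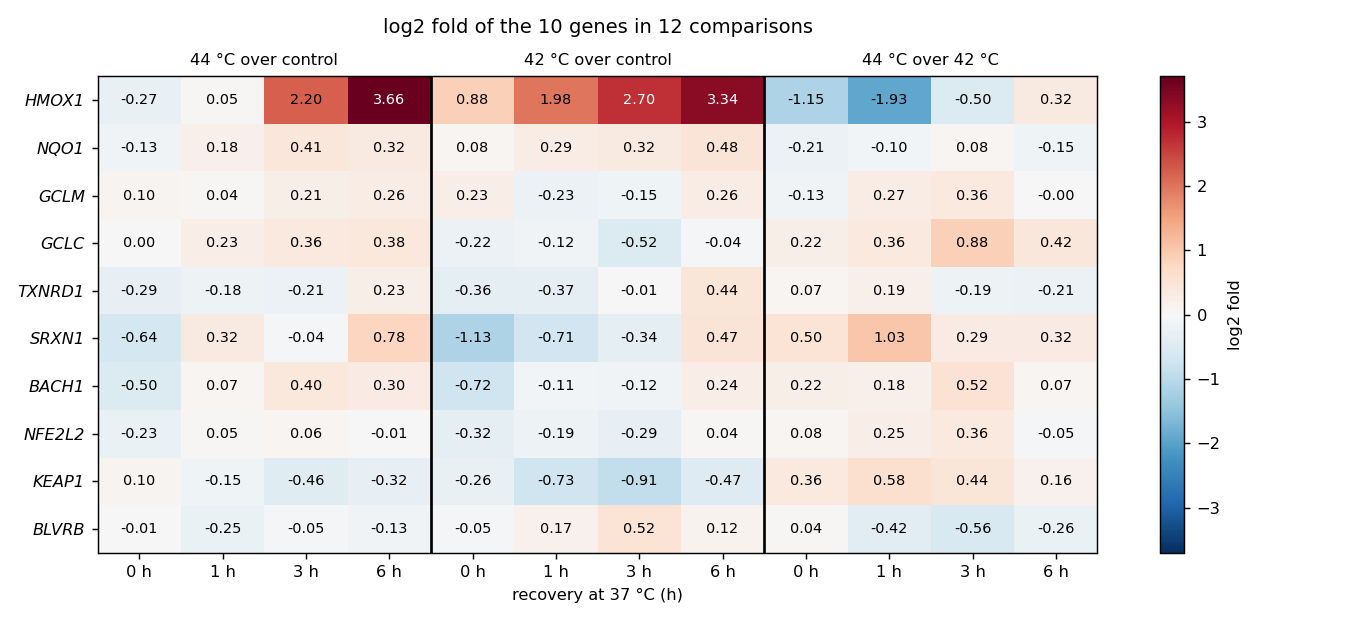
Map of log2 folds (colour and printed value) of the 10 genes in rows and 12 comparisons in columns, at 0, 1, 3 and 6 h: 44 °C over control, 42 °C over control, and 44 °C over 42 °C. The HMOX1 row reaches 3.66 and 3.34 at 6 h, and SRXN1 at 0 h after 42 °C (-1.13) is the sole other value of 1 or more in size against the control.

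Among the target genes, SRXN1 encodes sulfiredoxin, which repairs overoxidised peroxiredoxins. Its signal was 213, 415, 321 and 570 at 0, 1, 3 and 6 h after 44 °C, and 151, 202, 262 and 458 after 42 °C, against 331 in the control. Both 0 h arrays were below the control and both 6 h arrays above it. At 0 h after 42 °C SRXN1 fell 2.20-fold, and at 6 h its log2 fold over control was 0.78 after 44 °C and 0.47 after 42 °C. From the 0 h array to the 6 h array of the same temperature the difference was 2.68-fold after 44 °C and 3.03-fold after 42 °C, so with the 0 h array as baseline SRXN1 rose at 6 h. SRXN1 was also 2.05-fold higher at 44 °C than at 42 °C at 1 h. HMOX1 was lower at 44 °C in that same comparison.

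TXNRD1 encodes cytosolic thioredoxin reductase, which returns thioredoxin to its reduced form. Its signal was 1363, 1466, 1445 and 1955 at 0, 1, 3 and 6 h after 44 °C, and 1297, 1285, 1652 and 2256 after 42 °C, against 1666 in the control. At both temperatures the 6 h array was the highest, with log2 folds of 0.23 after 44 °C and 0.44 after 42 °C. The other TXNRD1 probe set was at the floor on all arrays. NQO1 encodes a quinone reductase. It had 411, 511.5, 597 and 562 after 44 °C, and 477, 550, 563 and 626 after 42 °C, against 450.3 in the control. On 7 of 8 heated arrays NQO1 was above the control, with log2 folds of at most 0.41 after 44 °C and 0.48 after 42 °C. Its other probe sets ran from -0.31 to 0.63.

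GCLM and GCLC encode the modifier and catalytic subunits of glutamate-cysteine ligase, the first enzyme of glutathione synthesis. GCLM had 793, 762, 855 and 886 after 44 °C, and 868, 631, 667 and 886 after 42 °C, against 739 in the control. By this brightest probe set 6 of 8 heated arrays were above the control, but both other probe sets were below it on all 8, with log2 folds from -1.29 to -0.18. The direction of GCLM is therefore not settled by these arrays. GCLC had 555, 652, 712 and 721 after 44 °C, and 476, 509, 387 and 538 after 42 °C, against 555 in the control. Its widest gap between temperatures was at 3 h, with a log2 fold of 0.88 for 44 °C over 42 °C. A second bright probe set of GCLC gave 1.32 for that gap and a fall at 3 h after 42 °C (-1.05), while the remaining, dim one had positive folds on 7 of 8 heated arrays.

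**Figure D3:**
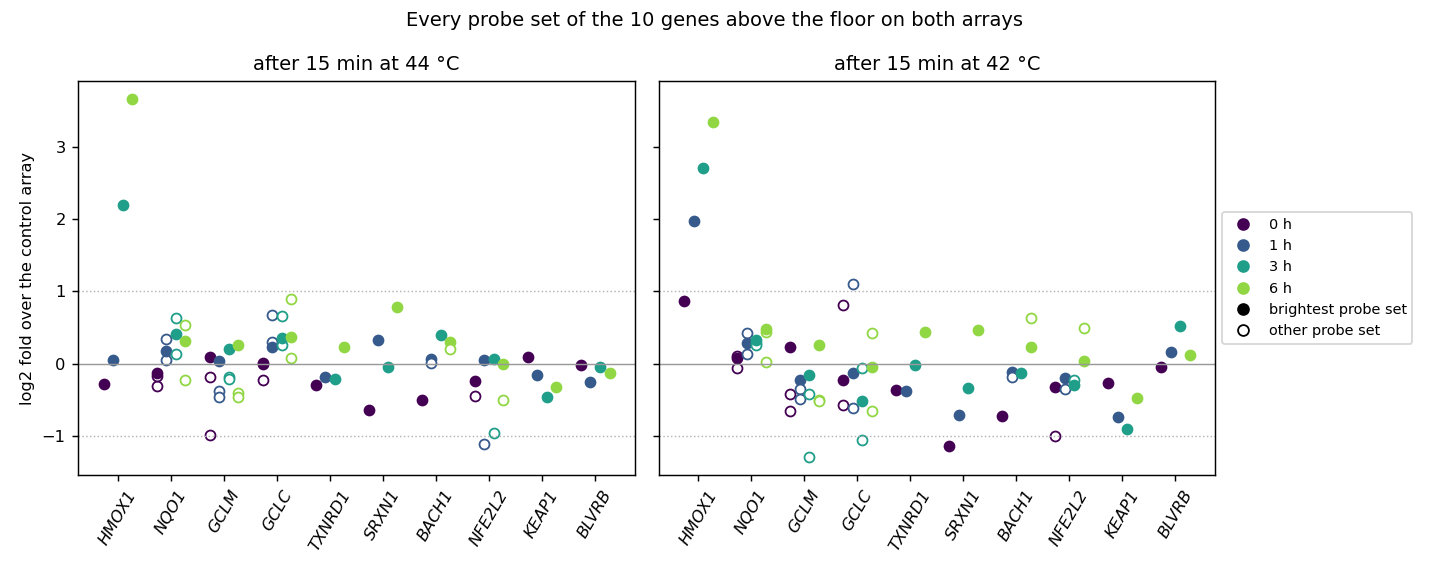
Log2 fold over the control array for every probe set of the 10 genes that was above the floor on both arrays, after 44 °C on the left and 42 °C on the right, coloured by recovery time. Filled points are the brightest probe set of a gene and open points its others, and dotted lines mark 2-fold. GCLM and NFE2L2 have open points near or past -1 where the filled points lie closer to 0, and the open points of GCLC reach -1.05 at 3 h and 1.10 at 1 h after 42 °C, beside filled points at -0.52 and -0.12.

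Of the regulators, transcripts of NFE2L2 stayed near the control. Its signal was 898, 1096, 1104 and 1052 after 44 °C, and 847, 924, 862 and 1089 after 42 °C, against 1056 in the control. The log2 folds ran from -0.23 to 0.063 at 44 °C and from -0.32 to 0.044 at 42 °C. A dim second probe set (19.9 to 60.6) gave a fall at 1 h after 44 °C (-1.11) and -0.99 at 0 h after 42 °C. NRF2 is controlled mainly through its protein, which these arrays do not measure.

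KEAP1 was below the control on 7 of 8 heated arrays, with its lowest level at 3 h after both temperatures. It had 631, 531, 428 and 473 after 44 °C, and 491, 355, 314 and 424 after 42 °C, against 589 in the control. At 3 h the log2 fold was -0.46 after 44 °C and -0.91 after 42 °C, short of 2-fold. At each recovery time KEAP1 was higher at 44 °C than at 42 °C, by 0.36, 0.58, 0.44 and 0.16 on the log2 scale.

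BACH1 was lowest on both 0 h arrays. Its signal was 166, 247, 311 and 291 after 44 °C, and 143, 219, 216 and 278 after 42 °C, against 236 in the control. The log2 fold at 0 h was -0.50 after 44 °C and -0.72 after 42 °C, and at 6 h it was 0.30 and 0.24. At 6 h, when HMOX1 stood highest, BACH1 transcripts were thus within 2-fold of the control by this probe set. A dim second probe set had 0.21 at 6 h after 44 °C and 0.63 after 42 °C, and the third was at the floor on all arrays. BACH1 protein was not measured.

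BLVRB, which acts on the biliverdin branch after heme breakdown, had 811, 687, 790.5 and 745 after 44 °C, and 790, 917, 1169 and 891 after 42 °C, against 817.5 in the control. All 4 arrays at 44 °C were a little below the control and 3 of 4 at 42 °C were above it, with log2 folds from -0.25 to 0.52. BLVRA, the other biliverdin reductase, had log2 folds of 0.10 at 6 h after 44 °C and 0.20 after 42 °C. HMOX2, the constitutive heme oxygenase, fell 2.54-fold at 6 h after 44 °C and had a log2 fold of -0.99 at 6 h after 42 °C. Another HMOX2 probe set gave -0.75 and -1.66 at those points.

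Of 13 measured genes of heme synthesis, breakdown and transport, ALAS1 was the 1 that rose. In the 4 comparisons where it did, 2.51% of all genes rose at 6 h after 44 °C, and 1.9%, 1.98% and 2.59% at 1, 3 and 6 h after 42 °C. ALAS1 encodes the rate-limiting enzyme of heme synthesis outside erythroid cells. Its signal was 795, 743, 1451 and 2151 after 44 °C, and 1216, 1834, 2794 and 1970 after 42 °C, against 835 in the control. It rose 2.58-fold at 6 h after 44 °C, and 2.20-fold, 3.35-fold and 2.36-fold at 1, 3 and 6 h after 42 °C. Like HMOX1, it was lower at 44 °C than at 42 °C at 1 h (2.47-fold), and unlike HMOX1 it passed its peak at 3 h after 42 °C. FLVCR1, a heme exporter, had log2 folds of -0.91 at 6 h after 44 °C and -0.95 after 42 °C. Its other probe set gave -1.16, past 2-fold, and -0.92 at those points. The list's median lay between -0.14 and 0.071 against the control, and the median of all genes was 0.

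In the wider set of NRF2 targets the counts past 2-fold were near those of all genes. Of 36 listed genes 33 were measured, 24 of them above the floor on all arrays and 3 at the floor on all. At 6 h after 44 °C 1 rose and 1 fell, with 2.51% and 2.64% of all genes, and at 6 h after 42 °C 0 rose and 1 fell, with 2.59% and 2.38%. At 1 and 3 h 0 rose and 0 fell after either temperature, and at 0 h 0 rose and 1 fell after both. Of all genes, 0.855%, 0.925% and 1.16% rose and 1.03%, 0.455% and 1.41% fell at 0, 1 and 3 h after 44 °C. After 42 °C the shares were 0.93%, 1.9% and 1.98% higher and 2.41%, 1.53% and 3.08% lower. The list's medians against the control ran from -0.012 to 0.15. The gene that rose was OSGIN1, which restrains growth under oxidative stress (2.13-fold at 6 h after 44 °C, at a dim 31.6 against 14.8), and its log2 fold at 6 h after 42 °C was 0.93. The gene that fell at 6 h was ABCC4, an exporter of organic anions (2.71-fold after 44 °C and 2.86-fold after 42 °C), although its other probe sets ran from -0.47 to -0.17 there.

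The gene that fell at 0 h was SLC7A11, the cystine carrier that feeds glutathione synthesis. It had 134 at 0 h after 44 °C and 108 at 0 h after 42 °C, against 474 in the control, a fall of 3.53-fold after 44 °C and 4.41-fold after 42 °C. Of its other probe sets, 1 was past 2-fold as well (-1.66 after 44 °C and -2.13 after 42 °C) and 1 was not (-0.78 and -0.62). By 6 h its log2 fold was 0.24 after 44 °C and 0.069 after 42 °C. FTL, the ferritin light chain that stores iron, had log2 folds at 6 h of -0.13 after 44 °C and 0.37 after 42 °C. FTH1, the ferritin heavy chain, had no probe set assigned to it alone and was given no level.

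Of 14 measured partners and regulators of NRF2 and BACH1, 0 rose against the control in any comparison. There 0.855% to 2.59% of all genes rose, so the absence of rises is near the share of all genes. After 42 °C 2 fell at 0 h and 1 at each later time, with 2.41%, 1.53%, 3.08% and 2.38% of all genes. After 44 °C 0 fell at 0, 1 and 3 h and 1 at 6 h, with 1.03%, 0.455%, 1.41% and 2.64%. CUL3, the scaffold of the ligase that KEAP1 serves, had log2 folds of -0.34, -0.28, -0.12 and -0.37 at 0, 1, 3 and 6 h after 44 °C and of -1.75, -1.70, -1.29 and -0.95 after 42 °C. It thus fell at 0, 1 and 3 h after 42 °C, and was 2.65-fold, 2.67-fold and 2.26-fold higher at 44 °C than at 42 °C at those times. Its other probe set off the floor gave smaller folds after 42 °C (-0.47 to -0.25) and positive ones after 44 °C (0.19 to 0.59). MAFF, a small Maf partner, fell 2.49-fold at 0 h after 42 °C, where another probe set had -0.21. NFE2L3, a relative of NRF2, fell 2.69-fold at 6 h after 44 °C and 2.04-fold after 42 °C, where another probe set had -0.45 and -0.37.

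Among 18 other antioxidant genes 0 fell against the control, where 0.455% to 3.08% of all genes fell. At 3 and at 6 h after 44 °C 1 rose, and after 42 °C 1 rose at 0 and at 1 h and 2 rose at 3 h. In those comparisons 1.16% and 2.51% of all genes rose after 44 °C, and 0.93%, 1.9% and 1.98% after 42 °C. The gene behind most of these counts, TXNIP, binds and inhibits thioredoxin and is no scavenger of oxidants. TXNIP had log2 folds of -0.84, 0.15, 1.77 and 1.77 after 44 °C and of 1.36, 1.85, 1.90 and 0.89 after 42 °C, and both of its other probe sets were past 1 at 3 h. At 6 h after 42 °C both others were past 1 as well (1.16 and 1.41), where the brightest was not. Set at 44 °C against 42 °C, TXNIP was lower at 0 and 1 h, with log2 folds of -2.20 and -1.70. The remaining gene to rise was SOD2, the mitochondrial superoxide dismutase (log2 fold 1.45 at 3 h after 42 °C). The list's median ran from 0.033 to 0.32.

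At 1 h after 44 °C and at 0 and 1 h after 42 °C, HMOX1 folds were smaller than those of most listed heat shock chaperones. At 1 h after 44 °C, 5 of 8 listed targets of the heat shock factor HSF1 had risen, where 0.925% of all genes rose. HSPA6 had a log2 fold of 4.85, BAG3 2.31 and DNAJB1 2.49, while HMOX1 had 0.053. The other 3 (SERPINH1, HSPH1 and HSPB1) had not passed 2-fold there by their brightest probe sets. SERPINH1 was at the floor on that array and in the control, so it has no fold there. For HSPH1 another probe set had a log2 fold of 1.12, past 2-fold, beside 0.54 for the brightest. At 0 h after 42 °C 8 of 8 had risen, where 0.93% of all genes rose, and HMOX1 had 0.88. SERPINH1 was at the floor in the control, so its rise after 42 °C is a lower bound. At 1 h after 42 °C 8 of 8 had risen too, where 1.9% of all genes rose, with HSPH1 at 2.00 and HMOX1 at 1.98. At 0 h after 44 °C 0 of 8 had risen, where 0.855% rose, and HMOX1 had -0.27. Set at 44 °C against 42 °C, 7 of 8 fell at 0 h and 6 at 1 h, where 0.753% and 1.27% of all genes fell. At 3 and 6 h 2 and 0 fell, where 0.976% and 1.37% of all genes fell. These chaperone genes were picked as known responders, so their counts are no evidence of their own. From 3 to 6 h after 42 °C, HSPA6 fell 2.35-fold, BAG3 was 1.53-fold and DNAJB1 1.93-fold lower at 6 h than at 3 h, and HMOX1 was 1.55-fold higher at 6 h than at 3 h. After 44 °C the 6 h array differed from the 3 h array by -0.013 for HSPA6, 0.33 for BAG3 and 0.15 for DNAJB1 on the log2 scale, and by 1.46 for HMOX1.

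**Figure D4:**
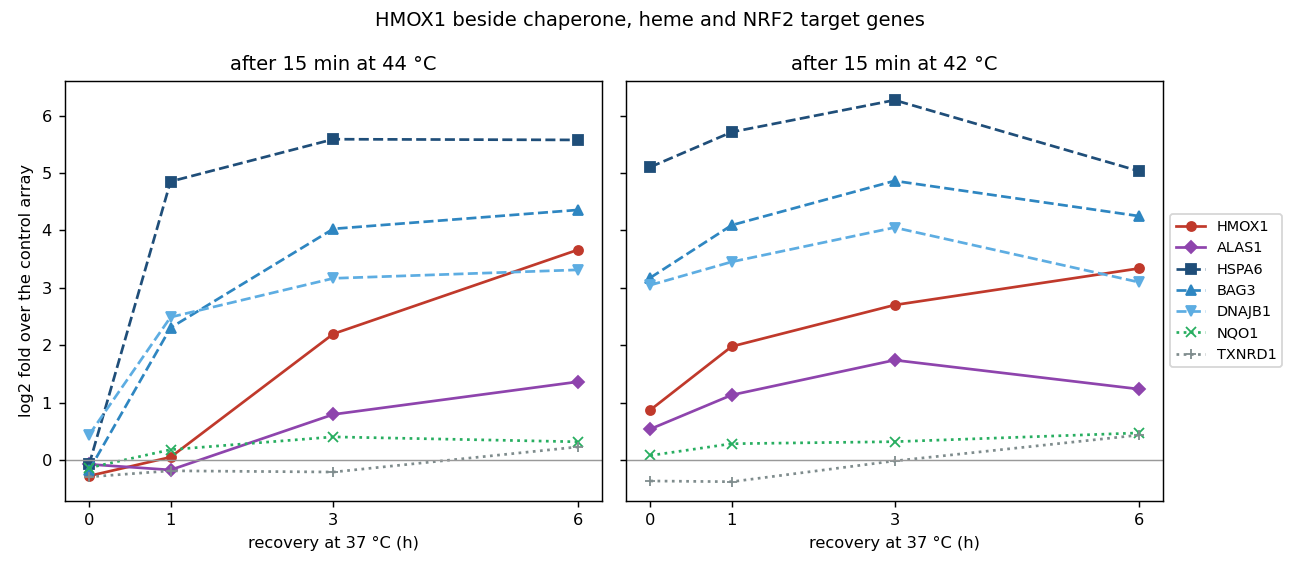
Log2 fold over the control array against recovery time in h, after 44 °C on the left and after 42 °C on the right, for HMOX1 and ALAS1 (solid lines), the chaperone genes HSPA6, BAG3 and DNAJB1 (dashed) and the NRF2 targets NQO1 and TXNRD1 (dotted), 1 array per point. HMOX1 climbs to 3.66 and 3.34 at 6 h, the chaperones peak at 3 h after 42 °C, and NQO1 and TXNRD1 stay within 0.48 of 0.

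The genes most like HMOX1 over the 9 arrays were sought among 9912 others above the floor on all arrays, by Pearson's r of log2 signals, given as a description since the arrays share a control and a time course. The 5 closest were EFCAB7 (r = 0.99), MINPP1 (0.99), EIF2AK3 (0.98), TBPL1 (0.98) and PLIN2 (0.97). EFCAB7 encodes a calcium-binding protein of cilia, MINPP1 an inositol phosphate phosphatase, EIF2AK3 the stress kinase PERK, TBPL1 a relative of the TATA-binding protein and PLIN2 a coat protein of lipid droplets. At 6 h their folds ran from 2.33 (EIF2AK3) to 4.07 (PLIN2) after 44 °C and from 1.97 (TBPL1) to 4.84 (PLIN2) after 42 °C, all smaller than that of HMOX1. Of the other 9 genes of the NRF2 and BACH1 system NQO1 came closest (r = 0.87, place 238), then TXNRD1 (0.62, place 1162), and KEAP1 ran the other way (-0.70). ALAS1 had 0.92 (place 84). Of the chaperone genes, BAG3 had 0.87 (place 231), DNAJB1 0.76 (place 636) and HSPA6 0.71 (place 801).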

How the data were processed

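Total RNA of 9 U937 samples was labelled and hybridised to Human Genome U133 Plus 2.0 arrays, per the labels' protocols. The deposited values are linear intensity values, 1 per probe set, made with MAS5 per the submitters' processing notes. The sources used here do not give the target they were scaled to. Each array was multiplied to a 2% trimmed mean of 100 over 54613 probe sets (factors 0.474 to 0.989), a floor was set at the median of all scaled values (12.5), and values were then put on the log2 scale. Of these, 41091 probe sets had 1 symbol, 1801 several and 11721 were not listed. The brightest probe set stood for each of 19775 genes. With 1 array per condition, folds of 2 or more were counted and no test was run. Depth does not apply to arrays, and their number limits the precision.

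Named genes were the 10 members, up to 4 genes of each pathway list past 2-fold per comparison, the 5 most like HMOX1, and SLC7A11, FTL, FTH1, HMOX2, BLVRA, HSPA6, BAG3 and DNAJB1 whatever their values. FLVCR1, SERPINH1, HSPH1, HSPB1 and the cell type markers named were chosen after their values were seen. The members, lists and alternatives were chosen with earlier results of these data known. Alternatives were quantile normalisation, floors at the 25th (2.91) and 75th percentile (79.0), the median over probe sets, and the 0 h array as baseline. Python 3.11.15 with pandas 2.3.3 and numpy 2.4.6 was used.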

Additional observations from a re-analysis of the deposited data

Results flagged for a closer look

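GCLC drew attention because every 44 °C array lay above the control and every 42 °C array below it. Its log2 folds were 0.0013, 0.23, 0.36 and 0.38 at 0, 1, 3 and 6 h after 44 °C, and -0.22, -0.12, -0.52 and -0.044 after 42 °C. This difference was not tested, and the value at 0 h after 44 °C is close to 0. By a second bright probe set 3 of 4 arrays at 44 °C were above the control, with -0.23 at 0 h, and all 4 at 42 °C were below it (-1.05 to -0.56). By the third, dim probe set the 42 °C arrays ran from -0.054 to 1.10, so the split of signs was not shared by all probe sets.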

How the results depend on the processing

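HMOX1 kept its side of 2-fold in all 54 values computed under 5 alternatives. With quantile normalisation its log2 folds moved by at most 0.093, and with either other floor or the median over probe sets they did not move, since it has 1 probe set and its lowest signal lies above both floors. With the 0 h array of the same temperature as baseline, its log2 fold was 1.11, 1.83 and 2.46 at 1, 3 and 6 h after 42 °C, because HMOX1 was already above the control at 0 h. The number of the 10 genes 2-fold or more apart changed in 6 of 54 counts. With the 0 h baseline it was 2 at 6 h after 44 °C and 2 at 6 h after 42 °C, in each case by adding SRXN1 (1.42 and 1.60). With the median over probe sets it was 1 at 1 h after 44 °C (NFE2L2, -1.11), 2 at 3 h after 42 °C (GCLC added, -1.05), and, for 44 °C against 42 °C, 1 at 3 h (GCLC, 1.32) and 1 at 6 h (NFE2L2, -1.01). Of 486 values of the other 9 genes, 462 stayed on their side of 2-fold and within 1.5-fold, 6 newly passed 2-fold and 18 moved further than 1.5-fold without crossing it. The number of arrays, 1 per condition, limits every value.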
